A study of Homo sapiens with 29 samples.

Results

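CXCR4 and 7 other genes that guide lymphocyte traffic (CXCR5, CCR7, S1PR1, KLF2, CD69, ITGA4 and ITGB7) were followed in lymphoma cells given R406, a small molecule that blocks SYK, the tyrosine kinase below the B-cell receptor. The members were all probe sets that the platform annotation assigned to these 8 symbols, a set of genes picked with earlier results of these data known, which gave 13 of the 22215 probe sets tested and 8 of 12165 genes with a probe set of their own. CXCR4 and ITGA4 had 3 probe sets each, CXCR5 had 2 and the other members had 1. RNA of DHL4 and DHL6, human diffuse large B-cell lymphoma lines, was hybridised to a short-oligonucleotide expression array, and 29 arrays in 10 groups were used. In each line the groups were the solvent DMSO and R406 at 1 µM for 2, 6, 24 or 48 h. Each group had 3 arrays, except DMSO in DHL4, which had 2. The labels give the DMSO arrays no time, while the study's design gives hours for DMSO as well as R406, and the DMSO arrays of a line may therefore stem from 1 time or several. They served as the reference for all 4 times, so hours in R406 cannot be told apart from hours in culture. Each line is 1 established culture, so a difference between DHL4 and DHL6 is a difference between those lines. Nothing says that replicate arrays are separate cultures, and p-values therefore rest on a spread that may be technical.

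Lymphocytes enter, position themselves in and leave lymphoid tissue through a small set of surface proteins. CXCR4 is the receptor for the chemokine CXCL12 and draws germinal centre B cells to the dark zone, CXCR5 leads B cells to follicles along CXCL13, and CCR7 leads cells to the T zone along CCL19 and CCL21. S1PR1 senses sphingosine-1-phosphate and allows exit into blood or lymph, CD69 binds S1PR1 and takes it off the surface, and the transcription factor KLF2 promotes S1PR1 transcription. ITGA4 and ITGB7 encode the integrin chains α4 and β7, which pair to bind MAdCAM-1 on gut vessels, while α4 also pairs with β1 to bind VCAM-1.

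CXCR4 rose while ITGB7 fell from 2 to 24 h in DHL4 and from 6 to 48 h in DHL6, and the 250 bases before their start sites are shown for that contrast, from RefSeq on GRCh38.p14. RefSeq windows were matched for 6 of the 8 members, without CCR7 and CD69. The CXCR4 window lies at chr2:136118150-136118399 on the minus strand and belongs to the outermost of 3 listed starts. The ITGB7 window lies at chr12:53207252-53207501 on the minus strand. Each window ends just before its own listed start. For CXCR4 that start was matched to the outer end of the gene model, while for ITGB7 it is the only start listed. Capitals mark matches on either strand to the GC box GGGCGG, the core of the NRF1 motif GCATGCGC or the TATA box TATAAA, and neighbouring or palindromic matches run together. The FOXO site GTAAACA and the E-box CACGTG were searched too.
CXCR4: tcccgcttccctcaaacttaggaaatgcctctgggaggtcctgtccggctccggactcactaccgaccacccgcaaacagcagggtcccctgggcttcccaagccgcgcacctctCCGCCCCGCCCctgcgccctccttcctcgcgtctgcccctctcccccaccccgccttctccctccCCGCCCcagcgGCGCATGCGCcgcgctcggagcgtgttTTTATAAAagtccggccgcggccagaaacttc
ITGB7: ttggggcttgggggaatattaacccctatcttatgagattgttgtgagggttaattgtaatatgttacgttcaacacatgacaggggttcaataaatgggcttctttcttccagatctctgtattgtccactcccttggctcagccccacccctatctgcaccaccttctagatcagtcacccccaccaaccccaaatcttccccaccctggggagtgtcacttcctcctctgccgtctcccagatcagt
The CXCR4 window held 3 GC boxes, an NRF1 core read on both strands 50 to 59 bases before the start, and a TATA box, also read on both strands, 25 to 32 bases before it. The ITGB7 window held no match to any of the 5 motifs, nor did those of ITGA4 and S1PR1. Of 35116 RefSeq windows of the same length, 42.6% held the GC box, 10.7% the TATA box, 6.34% the E-box, 2.98% the FOXO site and 2.63% the NRF1 core. A GC box was also found for CXCR5 and KLF2, and none of the 6 member windows held the FOXO site or the E-box. These matches describe letters in the windows and say nothing of binding.

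The values are deposited log2 expression per probe set, so a log2 difference of 1 is a 2-fold change. Levels of different probe sets are not read as relative amounts of RNA. They serve only to tell bright from dim probe sets and to describe cell markers. Over all arrays the values ran from 1.99 to 13.5, array medians lay between 3.11 and 3.27, upper quartiles between 4.8 and 5.35, and arrays of a group correlated at 0.978 to 0.996. The cells carried B-cell markers: 9 such genes summed to 72.3 to 81.6 per array, highest in DHL4 at 24 h. In each group the lowest of the 9 had a mean of 2.59 to 3.03, so at least 1 gave no clear signal. Markers of T and NK cells (9 genes, summed 24.3 to 26.6) and of monocytes and macrophages (7 genes, 19.4 to 21.9) had no group mean above 3.44. These absent lineages fix a dim range: 90% of the group means of 25 non-B marker genes were at or below 3.13. DCN, counted among the 9 fibroblast and endothelium markers, was the exception, bright in DHL4 at 8.43 in DMSO, 8.39, 6.45 and 4.42 after 2, 6 and 24 h of R406 and 8.68 at 48 h, while its group means in DHL6 did not pass 2.94. DCN in DHL4 thus was low at 24 h and back at 48 h, as ITGB7 was (below), and its part in these results was not tested. In bulk RNA, fewer cells that express a gene and less RNA of it per cell cannot be told apart.

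CXCR4 rose at every R406 time in both lines, in all 3 probe sets, and more in DHL4 than in DHL6 up to 24 h. By its brightest probe set, 217028_at, the DHL4 arrays read 6.69 and 6.32 in DMSO, 9.96, 9.96 and 9.93 after 2 h, and 9.95, 10.09 and 10.04 after 6 h. They then read 11.53, 11.39 and 11.39 at 24 h and 8.32, 8.29 and 8.50 at 48 h. No R406 array of DHL4 overlapped DMSO: CXCR4 was already near its 6 h level by 2 h, climbed again by 24 h and lost most of the gain by 48 h. The rise over DMSO was 3.45 ± 0.13 (log2 difference ± SE; 10.9-fold) at 2 h, 3.52 ± 0.13 at 6 h, 4.93 ± 0.13 (30.5-fold) at 24 h and 1.86 ± 0.13 (3.64-fold) at 48 h, with limma adjusted p of 1.46e-09 at 48 h and at most 6.65e-15 before.

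DHL6 started higher and rose less. Its CXCR4 arrays read 9.32, 9.25 and 9.18 in DMSO, 10.70, 10.73 and 10.68 after 2 h, and 10.68, 10.70 and 10.66 after 6 h. They read 10.89, 10.84 and 10.89 at 24 h and 11.11, 10.46 and 10.95 at 48 h. All R406 arrays of DHL6 lay above its DMSO arrays, with no called change between successive times. The rises were 1.46 ± 0.12 (2.75-fold), 1.43 ± 0.12, 1.63 ± 0.12 and 1.59 ± 0.12 in order of time (limma adjusted p at most 6.49e-09). The other probe sets gave the same calls with larger differences: 209201_x_at rose by 3.89, 3.95, 5.98 and 1.88 in DHL4 and by 1.71, 1.79, 2.23 and 2.01 in DHL6, and 211919_s_at by 4.10, 4.09, 6.17 and 1.98 in DHL4 and by 1.59, 1.74, 2.16 and 2.06 in DHL6. In DHL4 the rise of 211919_s_at was the highest of all 22215 probe sets at 2 h and at 24 h, and ranked 2nd at 6 h and 9th at 48 h.

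**Figure D1:**
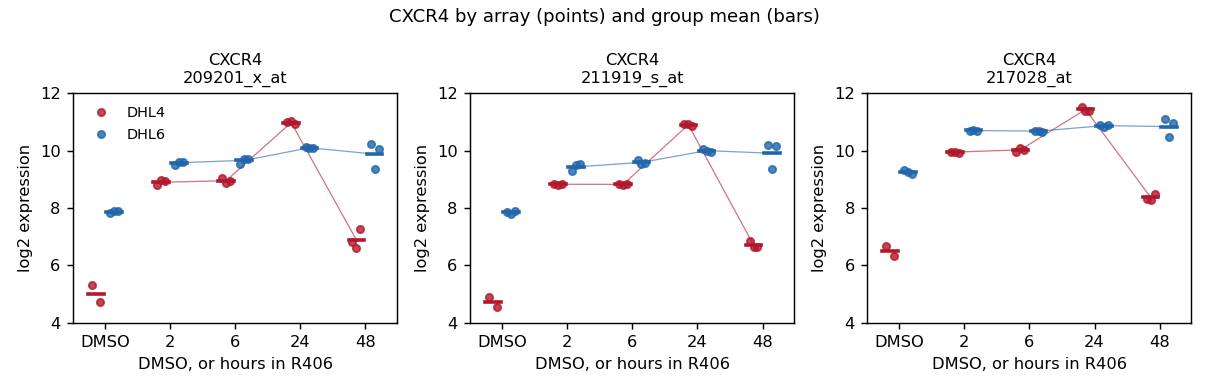
CXCR4 by array, as log2 expression on the vertical axis, in DMSO and after 2, 6, 24 and 48 h of R406 (evenly spaced groups), with 1 panel per probe set; points are arrays, short bars group means, and thin lines join the R406 means of a line. DHL4 (red) climbs from the lowest group to the highest at 24 h and falls at 48 h, while DHL6 (blue) moves far less after 2 h.

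The order of the 10 CXCR4 group means by 217028_at ran from DHL4 at 24 h (11.44 ± 0.08, SD), through R406 in DHL6 at 24, 48, 2 and 6 h (10.87 to 10.68), DHL4 at 6 and 2 h (10.03 and 9.95) and DMSO in DHL6 (9.25 ± 0.07), to DHL4 at 48 h (8.37 ± 0.11) and DMSO in DHL4 (6.51 ± 0.26, n = 2). Of the 9 neighbouring pairs in this order, 5 did not overlap in any array. The other 4 overlapped: the R406 groups of DHL6 among themselves, and 2 h with 6 h in DHL4. In DMSO, CXCR4 was 2.74 ± 0.13 higher in DHL6 than in DHL4 (6.68-fold, limma adjusted p = 4.55e-14), so the smaller rise in DHL6 began from a higher level.

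CXCR5 gave a small rise in DHL4 that peaked at 24 h. By 206126_at the DHL4 arrays read 3.21 and 3.57 in DMSO, 3.08, 3.21 and 4.17 at 2 h, and 3.96, 3.77 and 3.91 at 6 h. They reached 5.02, 4.89 and 5.32 at 24 h and returned to 4.17, 4.03 and 4.05 at 48 h. The 24 h arrays stood above all other arrays of both lines, and 1 of the 2 h arrays stood above the other arrays of its group. The 24 h rise was 1.69 ± 0.21 (3.23-fold, limma adjusted p = 4.2e-07). The 48 h difference of 0.70 ± 0.21 passed narrowly (limma adjusted p = 0.0452) and lost its call in 9 of 12 alternatives, with values from 0.51 to 0.88, among them leaving out either DMSO array or any 48 h array.

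In DHL6, CXCR5 by 206126_at did not pass the test up to 24 h, with differences of -0.37, -0.07 and -0.21. The DHL6 arrays read 4.11, 4.31 and 4.30 in DMSO and 3.11, 3.61 and 3.1 at 48 h, without overlap, a fall of 0.96 ± 0.19 on the log2 scale (limma adjusted p = 0.000463). The dimmer probe set 216734_s_at rose in DHL4 at 24 h too, by 1.10 ± 0.21 (limma adjusted p = 0.000131), but at 48 h in DHL6 it gave 0.09 ± 0.18 (limma adjusted p = 0.776). The DHL6 fall at 48 h therefore rests on 1 of the 2 CXCR5 probe sets. The other, 216734_s_at, read 3.58 in DMSO in DHL6, not far above the dim range limit of 3.13. It thus had little room to show a fall.

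CCR7 rose late and in DHL6. Its DHL6 arrays read 3.67, 3.46 and 3.47 in DMSO, 3.29, 2.99 and 3.1 at 2 h, and 3.44, 3.48 and 2.81 at 6 h. They read 3.94, 4.10 and 3.67 at 24 h and 6.52, 6.15 and 6.88 at 48 h. The 48 h arrays stood far above the rest, and the 24 h arrays touched the top of the DMSO range. The difference from DMSO was 2.98 ± 0.20 at 48 h (7.91-fold, limma adjusted p = 9.15e-11), which ranked 11th of all probe sets, and 0.37 ± 0.20 at 24 h (limma adjusted p = 0.293). In DHL4 its values lay between 2.43 and 3.41, about the dim range, and no R406 time passed the test; the largest difference was 0.48 ± 0.22 at 24 h (95% interval 0.02 to 0.94, limma adjusted p = 0.131).

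CD69 showed a single tall peak, in DHL4 at 24 h. Its DHL4 arrays read 2.73 and 2.51 in DMSO, 3.01, 2.91 and 3.13 at 2 h, and 2.75, 3.17 and 3.38 at 6 h. They reached 6.37, 7.12 and 7.04 at 24 h and were back at 2.55, 2.77 and 2.43 at 48 h. The gene went from the dim range to a clear signal and back. The 24 h difference was 4.22 ± 0.22 (18.6-fold, limma adjusted p = 1.32e-13), ranked 25th of all probe sets, and at 48 h it was -0.04 ± 0.22 (limma adjusted p = 0.979). Because RMA compresses values near its floor, a fold change that starts there is understated.

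In DHL6 the CD69 arrays read 2.79, 2.97 and 2.64 in DMSO and 3.63, 3.05 and 3.93 at 2 h, a rise of 0.74 ± 0.20 (limma adjusted p = 0.0284) that just cleared the DMSO range. That call was lost in 5 of 13 alternatives, among them leaving out DMSO array 1 or 3 or 2 h array 1 or 3, with values of 0.54 to 0.73 and adjusted p of 0.0897 to 0.194 for those arrays. At 6, 24 and 48 h the DHL6 differences were 0.15, 0.03 and 0.16, all with a standard error of 0.20, and did not pass.

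S1PR1 and KLF2 stayed in or near the dim range on all arrays. The 29 S1PR1 values (204642_at) ran from 2.51 to 3.42 with a median of 2.83, and the 29 KLF2 values (219371_s_at) from 2.52 to 3.42 with a median of 2.85. Neighbouring groups overlapped throughout the order of both genes, so no ranking of their levels can be read. Neither was called by limma in any contrast (0 of 19 each), and the unadjusted p was below 0.05 in 4 contrasts for KLF2 and 1 for S1PR1. For KLF2 the nearest was DHL4 at 24 h, with arrays of 3.11, 2.94 and 3.39 against 2.52 and 2.93 in DMSO (0.42 ± 0.18, unadjusted p = 0.0295, adjusted p = 0.0994). For S1PR1 the difference in DHL4 at 24 h was 0.30 ± 0.17 (95% interval -0.06 to 0.66). A gene at this floor in DMSO cannot show a fall, and a change below it was not detectable here.

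**Figure D2:**
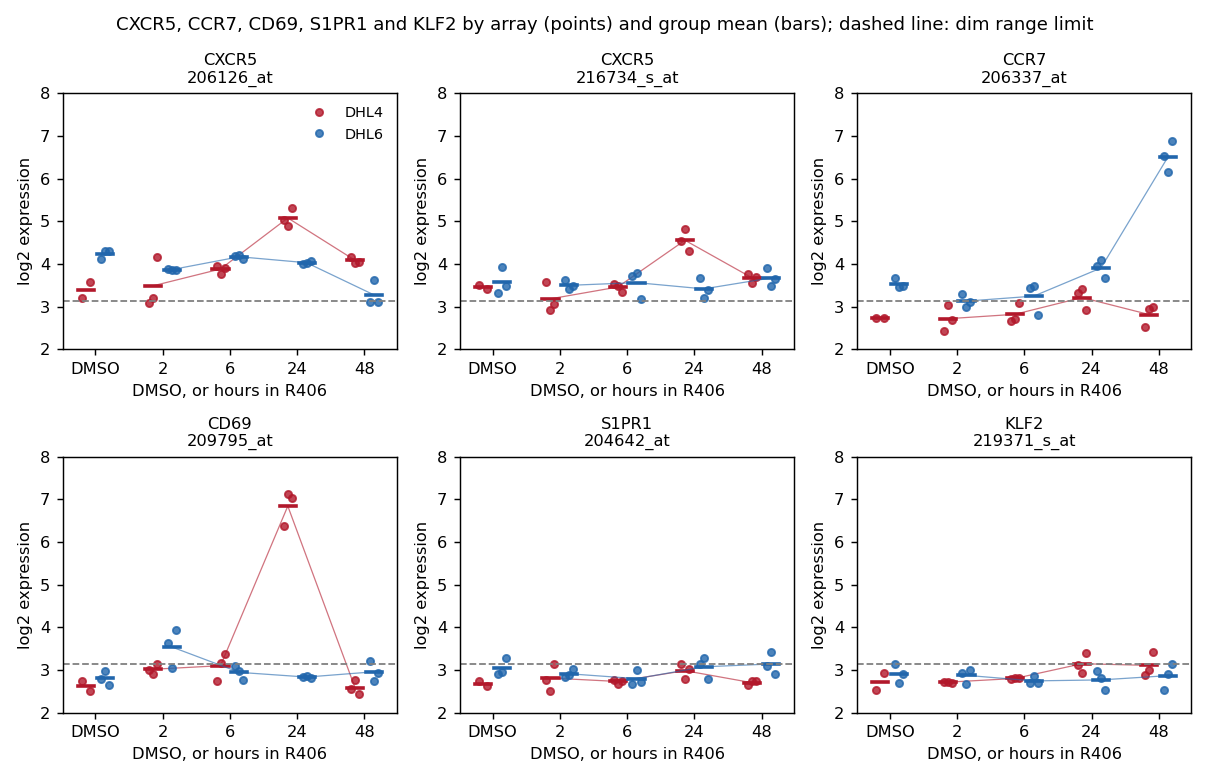
CXCR5, CCR7, CD69, S1PR1 and KLF2 by array, as log2 expression on the vertical axis, in DMSO and after 2, 6, 24 and 48 h of R406 (evenly spaced groups); points are arrays, short bars group means, thin lines join R406 means, and the dashed line at 3.13 bounds 90% of the non-B marker means. CXCR5 and CD69 peak in DHL4 (red) at 24 h, CCR7 rises in DHL6 (blue) at 48 h, and S1PR1 and KLF2 lie around the dashed line.

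The α4 chain gene ITGA4 fell in both lines, early in DHL6 and mainly late in DHL4. By its brightest probe set, 213416_at, the DHL6 arrays read 6.11, 6.18 and 5.69 in DMSO, 4.15, 5 and 4.82 at 2 h, and 4.43, 4.76 and 4.08 at 6 h. They read 4.64, 4 and 4.33 at 24 h and 4.19, 4.96 and 4.85 at 48 h. Every R406 array of DHL6 lay below its DMSO arrays from 2 h on. The falls were -1.33, -1.57, -1.67 and -1.32 in order of time, each ± 0.23 (limma adjusted p from 9.54e-06 to 0.000456). The probe sets 205884_at (-1.47, -1.44, -1.71 and -1.69) and 205885_s_at (-1.14, -1.72, -1.59 and -1.74) were called lower at all 4 times as well. The 205885_s_at means in DHL6 at 6, 24 and 48 h (2.89, 3.01 and 2.86) and in DHL4 at 24 and 48 h (2.91 and 3.02) lie in the dim range, so its differences there may understate the fall.

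In DHL4 the ITGA4 arrays by 213416_at read 6.72 and 5.98 in DMSO, 5.79, 5.95 and 5.96 at 2 h, and 5.91, 6.14 and 6.03 at 6 h. They read 4.94, 5.40 and 5.18 at 24 h and 5.54, 5.37 and 5.41 at 48 h. The late arrays were all below DMSO, although the DMSO arrays themselves stood apart. The differences were -0.45 and -0.33 (± 0.26, not called) at 2 and 6 h, -1.18 ± 0.26 at 24 h (limma adjusted p = 0.000807) and -0.91 ± 0.26 at 48 h (limma adjusted p = 0.0312). Without DMSO array 1 the last 2 became -0.80 (adjusted p = 0.0705) and -0.54 (adjusted p = 0.504), and the 48 h call was also lost without any 1 of its own arrays (-0.96 to -0.88). The probe sets 205884_at and 205885_s_at kept their calls at 24 h (-1.06 and -1.14) and 48 h (-0.99 and -1.03) in all 11 alternatives run for each. At 2 h only 205885_s_at was called in DHL4, at -0.65 ± 0.18 (limma adjusted p = 0.0205), and 5 of 11 alternatives lost that call, among them leaving out either DMSO array (-0.78 and -0.52) or 2 h array 2 or 3 (-0.58 and -0.62).

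The β7 chain gene ITGB7 fell in DHL4 within 2 h and was back near its starting level at 48 h. Its DHL4 arrays read 6.72 and 6.62 in DMSO, 4.51, 5.61 and 4.70 at 2 h, and 4.54, 4.37 and 4.36 at 6 h. They read 3.94, 4.13 and 4.27 at 24 h and 6.92, 6.84 and 7.27 at 48 h. The arrays at 2, 6 and 24 h were all below DMSO and those at 48 h all just above it. The differences were -1.73, -2.25 and -2.56 (5.9-fold) at 2, 6 and 24 h, each ± 0.28 with limma adjusted p from 7.25e-08 to 0.000167, and 0.34 ± 0.28 (limma adjusted p = 0.707) at 48 h.

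DHL6 had less ITGB7 to begin with and did not return. Its arrays read 5.08, 4.96 and 4.48 in DMSO, 4.69, 4.04 and 4.24 at 2 h, and 3.67, 3.41 and 4.32 at 6 h. They read 3.59, 4.15 and 3.5 at 24 h and 3.34, 3.92 and 3.49 at 48 h. Only the 2 h arrays overlapped DMSO. The differences were -0.52 ± 0.25 at 2 h (limma adjusted p = 0.409), -1.04 ± 0.25 at 6 h (0.00934), -1.09 ± 0.25 at 24 h (0.00385) and -1.26 ± 0.25 at 48 h (0.000702). The 6 h call was lost without DMSO array 1 (-0.93, adjusted p = 0.0629), without 6 h array 2 (-0.85, 0.0676), under a further quantile normalization (-0.84, 0.06) and with the compared groups alone in the fit (0.0611).

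**Figure D3:**
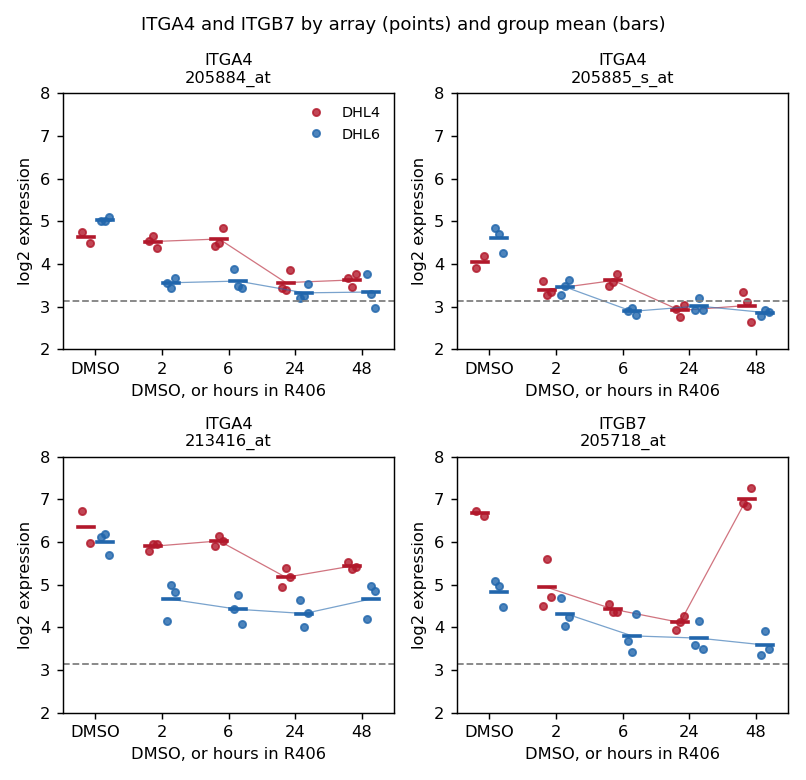
ITGA4 (3 probe sets) and ITGB7 by array, as log2 expression on the vertical axis, in DMSO and after 2, 6, 24 and 48 h of R406 (evenly spaced groups); points are arrays, short bars group means, thin lines join R406 means, and the dashed line at 3.13 bounds 90% of the non-B marker means. ITGA4 is lower in DHL6 (blue) from 2 h in all 3 probe sets. In DHL4 (red) all 3 were called lower from 24 h, and only 205885_s_at at 2 h. ITGB7 in DHL4 falls to 24 h and stands at 7.01 at 48 h.

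Counted over the 13 member probe sets, DHL4 had 3 higher and 2 lower at 2 h, where 2.18% and 5.86% of all probe sets were called higher and lower. At 6 h it had 3 higher and 1 lower (5.2% and 5.44% over all), at 24 h 6 higher and 4 lower (11.7% and 14.3%) and at 48 h 4 higher and 3 lower (2.89% and 3.42%). DHL6 had 4 higher and 3 lower at 2 h (1.63% and 2.74% over all), 3 and 4 at 6 h (2.46% and 4.43%), 3 and 4 at 24 h (5.11% and 7.3%) and 4 and 5 at 48 h (6.86% and 13.4%). In each of these 8 comparisons 3 of the higher calls were the CXCR4 probe sets, and in DHL6 3 of the lower calls were those of ITGA4, so the counts hold few genes. The median difference over the 13 probe sets lay between -0.17 and 0.48, against 0.01 to 0.04 over all probe sets, and the members did not move one way.

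**Figure D4:**
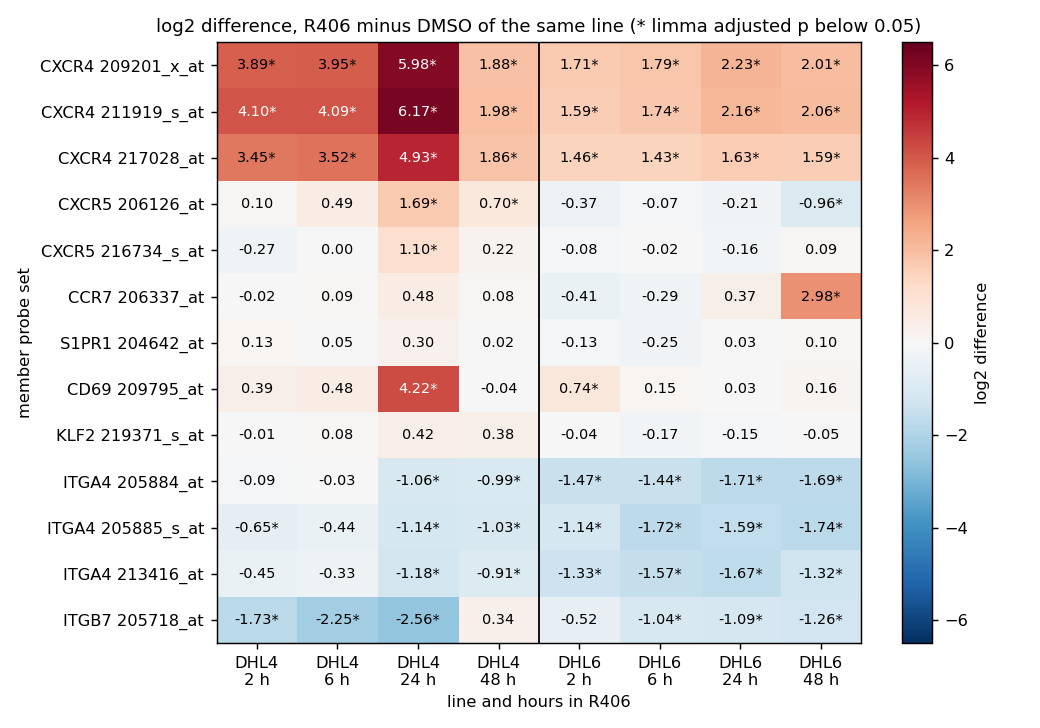
Log2 difference of R406 from DMSO of the same line for the 13 member probe sets (rows) at 2, 6, 24 and 48 h in DHL4 and DHL6 (columns); red is higher, blue is lower, and an asterisk marks a limma adjusted p below 0.05. The CXCR4 rows are red throughout, up to 6.17, and the ITGA4 and ITGB7 rows are mostly blue, except ITGB7 in DHL4 at 48 h.

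Successive R406 times were compared with each other, so that no DMSO mean enters the difference, although all 29 arrays share the estimate of spread. Between 2 and 6 h no member was called in DHL4 (0 of 13; 1 had an unadjusted p below 0.05; 10.1% of all probe sets were called), and leaving out the high 2 h array of CXCR5 gave 1 call. In DHL6 that step held 1 call, ITGA4 by 205885_s_at (-0.57 ± 0.16, limma adjusted p = 0.0425; 3.51% over all), which was lost without any of 5 of the 6 arrays compared, the exception being 2 h array 1, and with the compared groups alone in the fit (adjusted p = 0.113). From 6 to 24 h in DHL4, 6 probe sets rose and 3 fell (19.6% over all): CXCR4 rose by 1.41 ± 0.12 (217028_at), CXCR5 by 1.20 ± 0.19 (206126_at) and CD69 by 3.74 ± 0.20, and all ITGA4 probe sets fell, with -0.85 ± 0.23 for 213416_at (-0.73, adjusted p = 0.051, without 24 h array 1). In DHL6 none was called at that step (0 of 13; 3 had an unadjusted p below 0.05; 4.47% over all), although CCR7 came near with 0.66 ± 0.20 (limma adjusted p = 0.0607). CXCR4 gave 0.44 ± 0.17 by 209201_x_at, 0.41 ± 0.14 by 211919_s_at and 0.20 ± 0.12 by 217028_at (limma adjusted p = 0.169, 0.12 and 0.481), and in each the 24 h arrays lay above the 6 h arrays.

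From 24 to 48 h the lines parted. In DHL4, 6 member probe sets fell and 1 rose (21.8% of all probe sets were called): CXCR4 fell by 3.07 ± 0.12 (217028_at, limma adjusted p = 8.94e-16), CXCR5 by 0.99 ± 0.19 (206126_at), CD69 by 4.26 ± 0.20 (limma adjusted p = 2.07e-14), and ITGB7 rose by 2.90 ± 0.25 (limma adjusted p = 1.87e-09). ITGA4 did not follow that return, with 0.27 ± 0.23 by 213416_at (limma adjusted p = 0.519). In DHL6 there were 2 calls (6.04% over all), CCR7 up by 2.61 ± 0.20 (limma adjusted p = 4.23e-08) and CXCR5 by 206126_at down, at -0.75 ± 0.19 (limma adjusted p = 0.0158). The CXCR5 call was lost without 24 h array 3 (-0.74, adjusted p = 0.0576) and without 48 h array 1 or 3 (-0.67 each), and with the compared groups alone in the fit (adjusted p = 0.1). The other CXCR5 probe set, 216734_s_at, gave 0.25 ± 0.18 (limma adjusted p = 0.485). CXCR4 in DHL6 held, at -0.04 ± 0.12 (95% interval -0.28 to 0.21).

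Whether R406 acted differently on the lines was tested at each time as the DHL6 response minus the DHL4 response. At 2 h 4 of 13 were called, all lower (1.31% of all probe sets), at 6 h 6, all lower (5.58%), at 24 h 1 higher and 6 lower (13.9%), and at 48 h 1 higher and 2 lower (3.99%). For CXCR4 by 217028_at the difference was -1.99 ± 0.18, -2.09 ± 0.18 and -3.30 ± 0.18 at 2, 6 and 24 h (limma adjusted p at most 2.22e-07). At 48 h it was -0.27 ± 0.18 (95% interval -0.64 to 0.10, limma adjusted p = 0.475). Thus the CXCR4 rise was larger in DHL4 up to 24 h, and at 48 h a difference was not shown.

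CD69 differed between the lines at 24 h (-4.19 ± 0.30, limma adjusted p = 2.88e-10) and CCR7 at 48 h (2.90 ± 0.30, limma adjusted p = 1.89e-06). CXCR5 by 206126_at differed at 24 h (-1.90 ± 0.28) and at 48 h (-1.66 ± 0.28), where DHL4 was above its DMSO arrays, a call that most alternatives lost, and DHL6 below. By 216734_s_at the difference was -1.26 ± 0.28 at 24 h (limma adjusted p = 0.00184) and -0.12 ± 0.28 at 48 h (limma adjusted p = 0.877), so the 48 h difference rests on 1 of the 2 probe sets. For ITGA4 all 3 probe sets gave a deeper fall in DHL6 at 6 h (-1.24 ± 0.34 by 213416_at, limma adjusted p = 0.031, and -0.87 without DMSO array 2 of DHL4, adjusted p = 0.33). That call was lost too without DMSO array 1 or 2 of DHL6 (-1.18 and -1.15), 6 h array 2 or 3 of DHL4 (-1.18 and -1.24) or 6 h array 3 of DHL6 (-1.07), while 205884_at (-1.40 ± 0.25) and 205885_s_at (-1.28 ± 0.24, its DHL6 level at 6 h in the dim range) kept theirs. None of the 3 passed at 24 or 48 h, and at 2 h only 205884_at did (-1.38 ± 0.25, limma adjusted p = 0.0032). For ITGB7 the fall was deeper in DHL4 at 24 h (1.47 ± 0.38, limma adjusted p = 0.00841), and at 48 h the sign was the opposite (-1.59 ± 0.38, limma adjusted p = 0.0159; -1.54, adjusted p = 0.0961, without DMSO array 2 of DHL4).

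**Figure D5:**
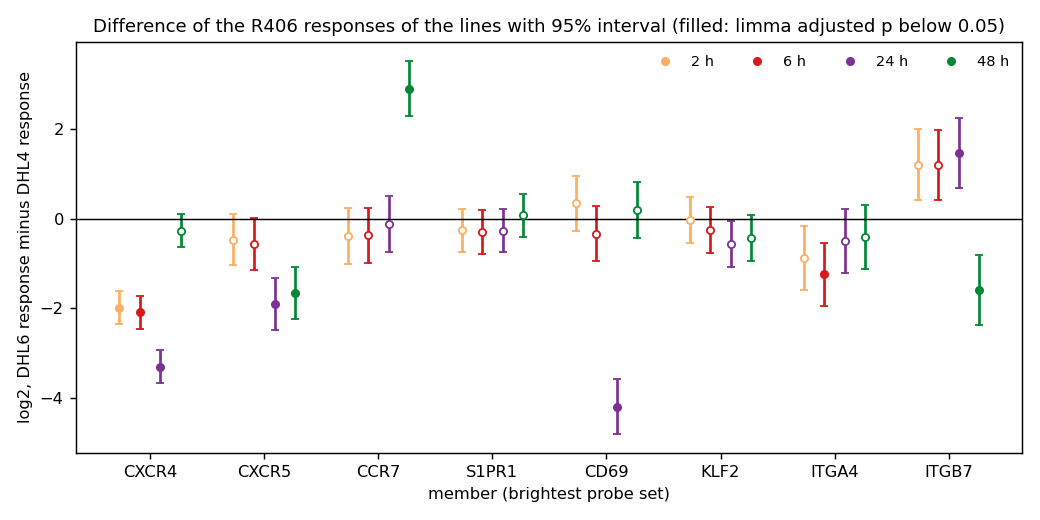
Response of DHL6 minus response of DHL4 to R406 (log2, vertical axis) for the brightest probe set of each member at 2, 6, 24 and 48 h, with 95% intervals; filled points have a limma adjusted p below 0.05. CXCR4 lies below 0 up to 24 h and reaches it at 48 h, CD69 drops to -4.19 at 24 h, and CCR7 stands at 2.90 at 48 h.

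In DMSO the lines already differed in homing genes: 7 of 13 member probe sets were called, 6 higher in DHL6 and 1 lower, with 17.2% of all probe sets called. Besides CXCR4, CXCR5 by 206126_at (0.85 ± 0.21, limma adjusted p = 0.00435), CCR7 (0.80 ± 0.22, adjusted p = 0.0119) and ITGA4 by 205885_s_at (0.56 ± 0.18, adjusted p = 0.0296) were higher in DHL6. Other probe sets of these genes were not called: CXCR5 216734_s_at gave 0.13 ± 0.21 (limma adjusted p = 0.845), ITGA4 205884_at 0.41 ± 0.19 (0.164) and ITGA4 213416_at, its brightest, -0.36 ± 0.26 (0.48). ITGB7 was lower there (-1.83 ± 0.28, limma adjusted p = 2.32e-05). Leaving out DMSO array 1 of DHL4 left 4 calls, the 3 of CXCR4 and that of ITGB7, with CXCR5 at 0.66 (adjusted p = 0.12), CCR7 at 0.79 (0.0831) and ITGA4 at 0.42 (0.306). The ITGA4 call was lost too without DMSO array 1 or 2 of DHL6 (0.43 and 0.51). Without DMSO array 2 of DHL4 the CCR7 call was lost as well (0.81, adjusted p = 0.0742).

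Other genes of the same systems, each by its brightest probe set, are given as counts of genes called by limma, beside the share of all probe sets called the same way. A count near that share is not a result about the list. The share is over all probe sets rather than the brightest of each gene, so it is not strictly like the counts. A distance between count and share was not tested. Among 28 measured chemokine and lipid guidance receptors and ligands apart from the members, at most 3 were higher (DHL4 at 24 h and DHL6 at 48 h, where 11.7% and 6.86% of all probe sets were) and at most 2 lower (DHL6 at 6, 24 and 48 h, against 4.43%, 7.3% and 13.4%), and their median difference stayed within -0.04 and 0.04. PTAFR, the platelet-activating factor receptor, fell in DHL6 by 0.95 ± 0.20 at 2 h and by 2.5 ± 0.20 at 48 h, and in DHL4 by 1.37 ± 0.22 at 6 h. S1PR4, a lymphoid sphingosine-1-phosphate receptor, rose in DHL4 at 24 h by 1.30 ± 0.16 and gave 0.06 ± 0.15 in DHL6, and SGPP1, which breaks down sphingosine-1-phosphate, fell in DHL6 at 24 h by 1.59 ± 0.21.

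Among 28 other integrins, selectins and adhesion molecules, calls ranged from 1 higher and 3 lower (DHL4 at 48 h) to 5 and 5 (DHL4 at 24 h), where 2.89% and 3.42%, and 11.7% and 14.3%, of all probe sets were called. ITGAL, the αL chain of LFA-1, fell at all 4 times in both lines, with -1.52 ± 0.19 in DHL4 and -2.41 ± 0.17 in DHL6 at 6 h. ST6GAL1, a sialyltransferase that builds the CD22 ligand, rose in DHL4 by 0.84 ± 0.09 and in DHL6 by 0.52 ± 0.08 at 24 h, and CD48, a ligand of CD2 family receptors, fell by 2.34 ± 0.13 and 1.27 ± 0.11. At 2 h CD48 was higher in DHL4 (0.54 ± 0.13, limma adjusted p = 0.00655). Among 20 genes of integrin activation and anchoring, ILK rose at 24 h (0.63 ± 0.12 in DHL4, 0.88 ± 0.11 in DHL6), RAP1A, a GTPase that activates integrins, fell (-0.68 ± 0.14 and -0.52 ± 0.12), and ZYX, a focal adhesion protein, fell in DHL4 by 3.04 ± 0.28 at 24 h and read 3.19 in DMSO in DHL6, near the dim range. That group had at most 5 higher calls (DHL4 at 24 h, 11.7% over all) and 5 lower (DHL4 at 2 and 6 h, 5.86% and 5.44% over all), with medians of -0.11 to 0.04.

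Of 33 genes of chemoattractant signalling and migration, 3 to 8 were higher and 1 to 9 lower over the 8 comparisons. The most calls were in DHL4 at 24 h, 8 higher and 9 lower (11.7% and 14.3% over all), and in DHL6 at 48 h, 4 higher and 9 lower (6.86% and 13.4%). RHOH, a haematopoietic GTPase without GTP hydrolysis, rose at all 4 times in both lines, by 2.61 ± 0.13 in DHL4 and 1.69 ± 0.11 in DHL6 at 24 h. EZR, encoding ezrin, which ties membrane proteins to actin, rose by 2.34 ± 0.10 and 1.03 ± 0.09 at that time, and LCP1, the actin-bundling L-plastin, fell by 2.25 ± 0.16 and 1.5 ± 0.15. Of 21 KLF, FOXO and trafficking genes, 10 were higher and 3 lower in DHL4 at 24 h (median 0.35; 11.7% and 14.3% over all) and 3 and 3 in DHL6 (median 0.04; 5.11% and 7.3%). BTG1, an antiproliferative gene, rose by 1.87 ± 0.21 and 0.75 ± 0.18 at that time, while KLF10 (-1.08 ± 0.31 and -0.98 ± 0.28) and TOB1 (-1.29 ± 0.21 and -1.22 ± 0.19) fell.

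CD69 is itself a gene that stimulated B cells switch on, and others of that class were counted. Of 20 measured, 4 were higher and 7 lower in DHL4 at 24 h (median 0; 11.7% and 14.3% over all), and 2 higher and 6 lower in DHL6 (median -0.38; 5.11% and 7.3%). IER2, an immediate early gene, fell at 24 h (-2.24 ± 0.12 in DHL4 and -1.24 ± 0.11 in DHL6), as did DUSP2, an early phosphatase (-1.88 ± 0.27 and -1.84 ± 0.24). CD40, the receptor for T-cell help, rose in DHL4 at 24 h by 1.19 ± 0.15 and in DHL6 at 6 h by 1.16 ± 0.14. In DHL4 at 24 h IER2 and DUSP2 thus moved against CD69, while CD40 rose as CD69 did. The 20 genes together had a median of 0 there, with 4 higher and 7 lower. Whether the list as a whole moved with or against CD69 was not tested.

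Likeness was measured as Pearson r over the 29 arrays after the mean of each line was removed; the points share the treatment groups, so r describes group means and has no test. CXCR4 by 217028_at was most like RUBCNL (r = 0.965 and 0.962 by 2 probe sets), PRDM2 (0.956 and 0.929) and KANK2 (0.936). CD69 was most like PDE4B (0.963), DHRS12 (0.947) and AK1 (0.943), and ITGB7 most like PDIA3 (0.9), CD180 (0.893) and MS4A1 (0.885). ITGA4 was most like PTPN7 (0.857), RHOBTB2 (0.855) and PHACTR1 (0.836), CXCR5 like AP3B1 (0.853), LTB (0.842) and B2M (0.83), and CCR7 like HEY1 (0.882 and 0.863) and NLRP1 (0.839). For S1PR1 (NAV2, IFNW1 and FGFR2, 0.745 to 0.692) and KLF2 (HSD11B1, ZNF688 and CACNA1A, 0.779 to 0.713) the values come from dim probe sets. Among the members, CXCR4 ran against ITGB7 (r = -0.84) and ITGA4 (-0.55) and with CD69 (0.68), and CD69 ran with CXCR5 (0.68). CD69 stood far above its other groups only in DHL4 at 24 h (mean 6.84), and CCR7 only in DHL6 at 48 h (6.52). Every r of CD69 or CCR7 therefore rests largely on that group.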

How the data were processed

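The authors deposited log2 expression values per probe set of an Affymetrix plate array, made with RMA per the submitters' processing notes. The RMA version and the set of arrays it normalized jointly are not stated in these sources. RMA pulls dim probe sets together near its floor, so changes of dim genes are understated, and precision is set by the number of arrays. Of 22277 probe sets, 62 were array controls and were left out; 19724 had 1 gene symbol, 568 several and 1923 none listed. Symbols were updated through Entrez identifiers (19707 matched). No 2 arrays held identical values.

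A mean per group was fitted to all 29 arrays and 22215 probe sets with R 4.3.3 and the lmFit and eBayes functions of limma 3.58.1 (19 residual and 5.15 prior degrees of freedom), tested on simulated data first. P-values were adjusted by Benjamini-Hochberg over all probe sets within each contrast, and calls needed an adjusted p below 0.05. SE and 95% intervals come from this model; SD is given over arrays. All member probe sets are named. Of each companion list at most 3 genes are named, those with the largest change among genes called with 1 sign at 2 or more times in both lines, or else called in any contrast; likeness names the 5 (CXCR4) or 3 probe sets of highest r. The members and lists were chosen with earlier results of these data known. Alternatives were array centring, quantile normalization, a filter on dim probe sets, an intensity trend with robust prior, a replicate block, the compared groups alone, 1 probe set per gene, and leaving out each array.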

Additional observations from a re-analysis of the deposited data

Results flagged for a closer look

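The responses of the lines to R406 differed by the test of the difference itself (limma, adjusted p below 0.05) for 20 member values, each given as the DHL6 minus the DHL4 response on the log2 scale. For CXCR4 at 2, 6 and 24 h these were -2.18, -2.16 and -3.74 by 209201_x_at, -2.51, -2.35 and -4.02 by 211919_s_at, and -1.99, -2.09 and -3.30 by 217028_at. For CXCR5 they were -1.90 at 24 h and -1.66 at 48 h by 206126_at, and -1.26 at 24 h by 216734_s_at. CD69 gave -4.19 at 24 h and CCR7 2.90 at 48 h. ITGA4 gave -1.38 at 2 h and -1.40 at 6 h by 205884_at, and -1.28 by 205885_s_at and -1.24 by 213416_at at 6 h. ITGB7 gave 1.47 at 24 h and -1.59 at 48 h. All rest on the 2 DMSO arrays of DHL4 and the 3 of DHL6.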

How the results depend on the processing

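Of the 102 called member differences, none changed sign under any alternative run. The calls kept were 100 after centring each array, 99 after quantile normalization, 102 of 102 with the dimmer probe sets left out, 100 with an intensity trend and robust prior, 96 with the compared groups alone, 50 of 50 with 1 probe set per gene, and 637 of 679 when 1 array was left out. The median difference of all probe sets lay between -0.03 and 0.04 as deposited, 0 and 0.01 after quantile normalization, and -0.06 and 0.04 after centring. For the DHL6 step from 2 to 6 h the count of 1 fell to 0 with centring, the trend, the replicate block or the compared groups alone, and was 0 to 1 without 1 array. For 6 to 24 h in DHL6 the count of 0 became 1 with the dim filter and 2 with the trend, and was 0 to 1 without 1 array. For 24 to 48 h in DHL6 the count of 2 became 1 with the compared groups alone and was 1 to 2 without 1 array. The DHL4 step from 2 to 6 h gave 0 to 1 without 1 array, and the DMSO comparison of the lines gave 4 to 7. The cause was not tested. Fewer arrays enter the fits of the compared groups and of a left-out array. Leaving out dimmer probe sets is no separate check of a call, because brightness was taken over all arrays, the called groups included. CD69 averaged 6.84 in DHL4 at 24 h and 3.54 or less in every other group. CCR7 averaged 6.52 in DHL6 at 48 h and 3.9 or less elsewhere. Their peaks may have carried them past that filter, and fewer tests enter its adjustment. The 102 of 102 calls kept there are therefore not read as support.

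The replicate numbers in the titles did not pair the arrays: over 56 same-numbered pairs the residual correlation had a median of 0, ran from -0.43 to 0.24 and exceeded 0.1 in 5. Each array's residual correlation with other groups of its line was also averaged by replicate number. For 10 of 29 arrays that mean was highest for their own number. With the number as a replicate block 98 of 102 calls were kept; the others were CXCR5 206126_at in DHL4 at 48 h (0.58, limma adjusted p = 0.0999), ITGA4 213416_at in DHL4 at 48 h (-0.92, 0.0534), ITGA4 205885_s_at from 2 to 6 h in DHL6 (-0.57, 0.0634) and the same probe set in DMSO (0.45, 0.206). Probe sets near the RMA floor, S1PR1 and KLF2 among them, limit what falls can be seen.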

Other observations

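3 genes of the companion lists were singled out after their values were seen, because they lie close to the members in known biology. FOXO1, a transcription factor that acts below PI3K and AKT and is known to promote homing receptor genes in lymphocytes, rose in DHL4 from 8.07 in DMSO to 8.88 at 6 h, 9.99 at 24 h and 8.73 at 48 h (log2 differences of 0.81, 1.92 and 0.67, limma adjusted p at most 0.00139). Its DHL4 level at 2 h, when CXCR4 had already risen, is not given here. No order in time of FOXO1 and CXCR4 can therefore be read. In DHL6 FOXO1 read 7.92 in DMSO and 8.33 at 24 h (0.41, limma adjusted p = 0.0161). Its DHL6 differences at 2, 6 and 48 h (-0.22, -0.19 and 0.26) did not pass. CD83, an activation marker carried by germinal centre B cells of the light zone, was 10.43 in DHL6 in DMSO, 11.14 at 2 h, 8.75 at 24 h and 8.84 at 48 h. Its DHL6 level at 6 h and its DHL4 levels are not given here. For CD83 and EGR1 only group means are given, without a test result. EGR1, an immediate early gene, read 5.99 in DHL6 in DMSO and 3.41 at 24 h, while in DHL4 it lay between 2.66 and 3.5 throughout. Whether these changes bear on the members was not tested.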
